A study of Mus musculus with 4 samples.

Results

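The 47 genes described here encode SR proteins, hnRNPs and other regulators of pre-mRNA splicing, and were taken from the 55487 genes of the deposited tables by their symbols, all 47 of which were found. They were measured by RNA-seq in mouse satellite cells, the muscle stem cells that lie beside the fibres, taken directly after isolation and without culture. The study removed Rbfox2, itself a splicing regulator, from these cells and compared 2 Control with 2 Rbfox2 cKO (conditional knockout) libraries, each made from 10 ng of RNA by the SMART-Seq protocol. In the cKO mice a floxed Rbfox2 was deleted by Pax7CreERT2, a tamoxifen-induced Cre that is active where Pax7 is expressed, and the mice also carried a Rosa26 EYFP reporter of the recombined cells. Whether the Control mice carried the Cre or the reporter or received tamoxifen, the age of the mice, and whether each library came from separate or pooled animals were not stated in the descriptions available, so the spread that the p-values rest on may be technical.

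Splice sites are read by the core spliceosome with the help of proteins that bind nearby RNA. SR proteins carry a domain rich in arginine and serine and mostly promote the use of an exon when bound inside it, and many hnRNPs bind exons or flanking introns and mostly repress it, although both families can act either way with position. Kinases of the Clk family phosphorylate SR proteins and control their activity. Rbfox proteins bind GCAUG and act on many of the same exons. Many genes of SR proteins and hnRNPs also hold a poison exon, a cassette exon whose inclusion brings an early stop codon and sends the transcript to nonsense-mediated decay, and the encoded proteins use it to limit their own amount.

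The estimated counts summed to between 68884091 and 101997422 in a library, and the cKO 1 library was the shallowest. It also had the highest median TPM over all genes, at 0.771, against 0.312 to 0.437 in the other 3 libraries. TPM is a transcript level per length, scaled to the same sum in every library. CPM is here the count of a gene relative to the library total after TMM scaling, which aims at a common level over the genes tested as a whole. After it, genes with a mean of at least 4 CPM still differed from the Control mean. Their median log2 level was -0.30 in cKO 1 and 0.12 in cKO 2. The targeted gene, Rbfox2, had 131 and 56.0 CPM in the Control libraries, and 40.0 (cKO 1) and 15.2 CPM (cKO 2) in the others. The 8 satellite cell markers were above 0 in every library and summed to between 13624 and 14963 TPM, of which Sdc4 alone gave 10958 to 12058 TPM. Pax7, which defines these cells, stood at 7.90 and 6.995 TPM in Control versus 15.9 and 13.5 TPM in cKO, and was not called. All 5 erythroid markers rose in edgeR, and they summed to 336 and 763 TPM in Control versus 1798 and 1471 TPM in cKO. The markers of endothelial cells, macrophages and leukocytes, fibro-adipogenic cells, smooth muscle and pericytes, Schwann cells and muscle fibres summed to at most 379 TPM in any library, none of their 27 genes was called, and none was at 0. The part of erythroid RNA or of the shallower cKO 1 library in the results below was not tested. In bulk libraries, fewer cells of a type and less RNA per cell cannot be told apart.

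The regulators were a well expressed group in satellite cells. They summed to 12077 and 11138 TPM in Control 1 and 2 and to 11390 and 11860 TPM in cKO 1 and 2, so that the summed levels of the groups overlapped. Srsf7, an SR protein with a zinc knuckle that also acts in mRNA export, had the highest mean level, at 1109 and 948 TPM in Control versus 980 and 1144 TPM in cKO. Hnrnpk, which binds C-rich RNA, came next with 1001 and 968 TPM in Control versus 805 and 936 TPM in cKO. The ranges of Srsf7 and Hnrnpk overlap, so these neighbours in the order do not differ beyond their spread. Srsf5 followed at 829 to 933 TPM, Rbm39 at 629 to 797 TPM and Hnrnpa2b1 at 598 to 715 TPM. At the other end, the neuronal regulator Nova2 and the epithelial regulators Esrp1 and Esrp2 stayed under 1 TPM in every library. Nova1 lay at 0.785 to 1.47 TPM, Khdrbs3 at 1.39 to 2.91 TPM and Rbm24, which acts in heart and skeletal muscle, at 3.45 to 4.60 TPM.

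**Figure D1:**
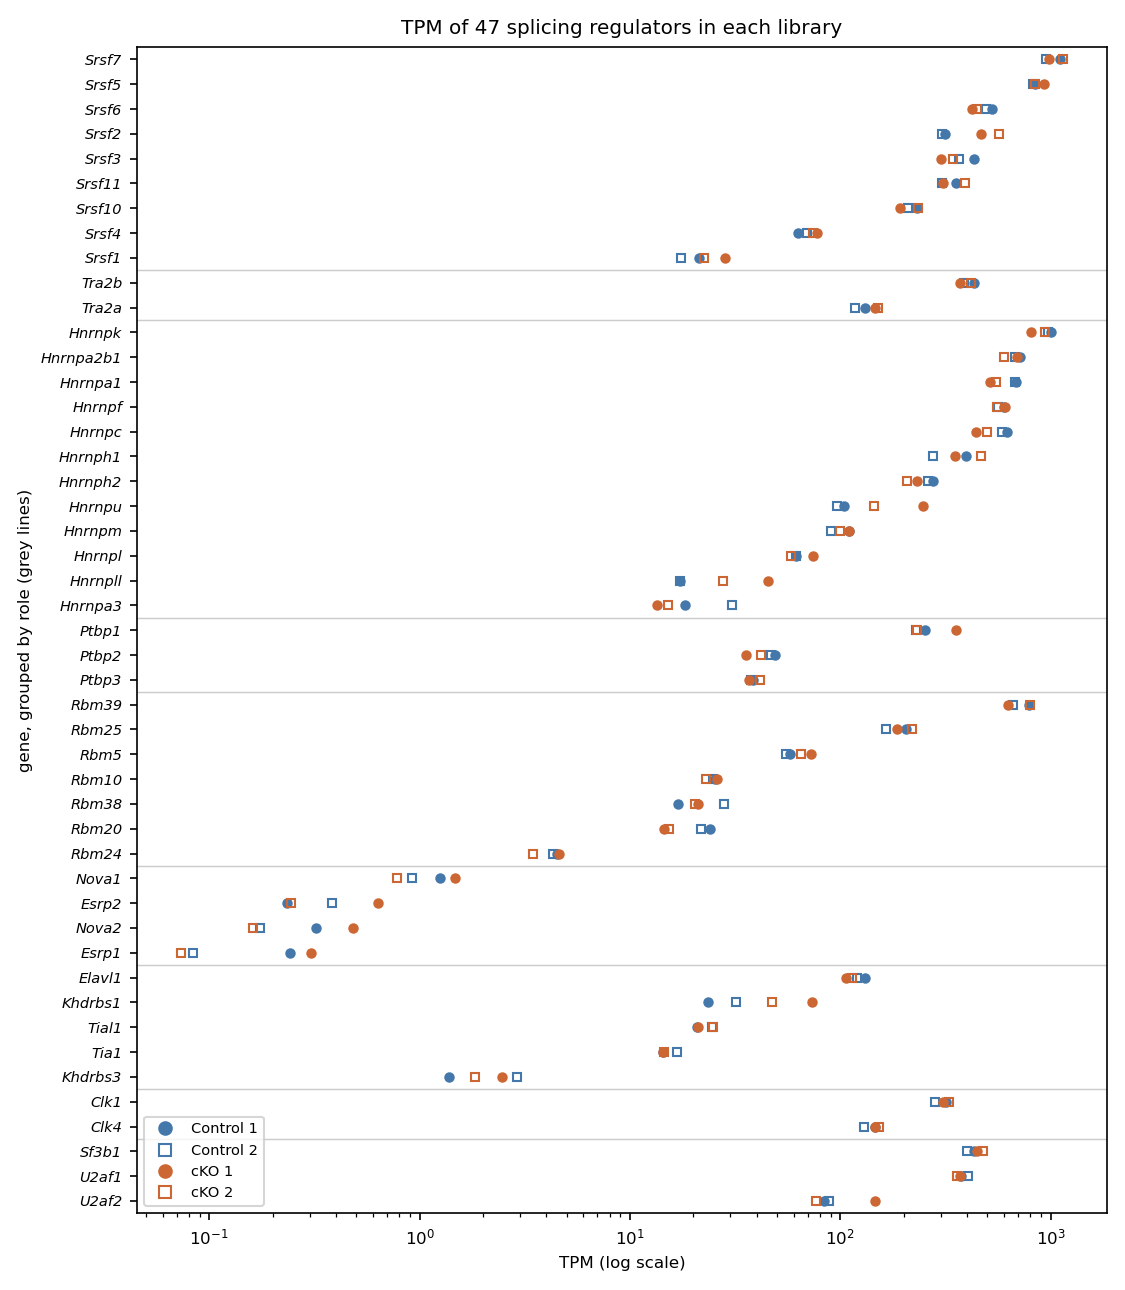
TPM of the regulators in each of the 4 libraries, on a log axis, with the genes grouped by role and ordered by mean level within each role; each point is 1 library. Srsf7 is highest, at 948 to 1144 TPM, and Nova2, Esrp1 and Esrp2 stand under 1 TPM in every library.

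Gene totals of the 47 gave few calls between the groups. In edgeR's quasi-likelihood test of counts, 1 of the 47 genes fell in cKO and none rose, where 0.551% of all 38143 genes tested were called (0.186% lower and 0.364% higher). The 1 gene was Hnrnpa3, in which Control 1 (16.5 CPM) lay close to cKO 2 (16.0 CPM). At an unadjusted p under 0.05 there were 4 genes, 2 higher (Hnrnpll and Khdrbs1) and 2 lower (Hnrnpa3 and Rbm20). That compares with 4.83% of all genes (3.32% higher and 1.51% lower) and 8.64% of those with a mean of at least 4 CPM. The cKO values were both above Control for 3 of the 47 (Hnrnpll, Hnrnpu and Khdrbs1) and both below it for 12, and the values of the other 32 overlapped. Over all genes tested, 31.3% had groups apart, 18.0% above and 13.3% below. Of the 10579 genes with a mean of at least 4 CPM, which are nearer to these genes in level, 16.7% lay above and 22.6% below, and 57.2% had a negative log2 fold change. The median log2 fold change was -0.07 over the 47, 0.06 over all genes tested and -0.06 over genes with a mean of at least 4 CPM. With library totals in place of TMM the medians of the 47 and of all genes were 0.06 and 0.25, so the sign for the 47 depends on the scaling.

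Beneath that median, the cKO libraries did not behave alike. Relative to the Control mean, the median log2 level in CPM of the 47 genes was -0.41 in cKO 1 and 0.04 in cKO 2, where genes with a mean of at least 4 CPM had -0.30 and 0.12. With cKO 2 left out, 19 of the 47 were called, 17 lower and 2 higher, where 4.79% and 0.597% of all genes were, and the median log2 fold change was -0.49. Genes with a mean of at least 4 CPM, whose median in cKO 1 was -0.30, were not counted apart in this fit. The share of calls among genes of like level is therefore not known. With cKO 1 left out, 3 genes were called, all higher (Hnrnpll, Khdrbs1 and Srsf2), where 1.53% of all genes were. Each of these fits leaves 1 cKO library, whose own spread is then assumed to be that of Control. Hnrnpll and Khdrbs1 were the genes called in both.

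On the TPM scale none of the 44 regulators with a mean of at least 1 TPM was called by limma on log2(TPM + 1), a scale that understates changes of low genes, where 0.308% of 17210 genes were (0.209% higher and 0.0988% lower). At an unadjusted p under 0.05 there were 10, 4 higher and 6 lower, against 14.9% of all genes tested (10.4% higher and 4.59% lower). Of the 10543 genes tested in TPM with a mean of at least 4 CPM, 20.2% had such a p (1377 genes higher and 748 lower). The cKO values lay above Control for 11 genes and below for 11, where 47.8% of all genes had groups apart, 32.0% above and 15.7% below. Of those with a mean of at least 4 CPM, 33.0% lay above and 21.4% below. The median log2 difference was 0.03 over the 44 and 0.13 over all genes tested. In cKO 1 and cKO 2 the median log2 level of the 47 in TPM was 0.04 and -0.06 relative to the Control mean. Genes with a mean of at least 4 CPM had medians of 0.13 and 0.01 in TPM, and genes with a mean of at least 1 TPM had 0.25 and 0.0029. The median of cKO 1 was thus higher in TPM than in CPM for these other genes too, and that of the 47 was below theirs on both scales. In CPM it was -0.13 for genes with a mean of at least 1 TPM and -0.30 for those with at least 4 CPM, so it differed with level. Genes as high as most of the 47 were not set apart, and whether the 47 are low for their level was not tested.

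**Figure D2:**
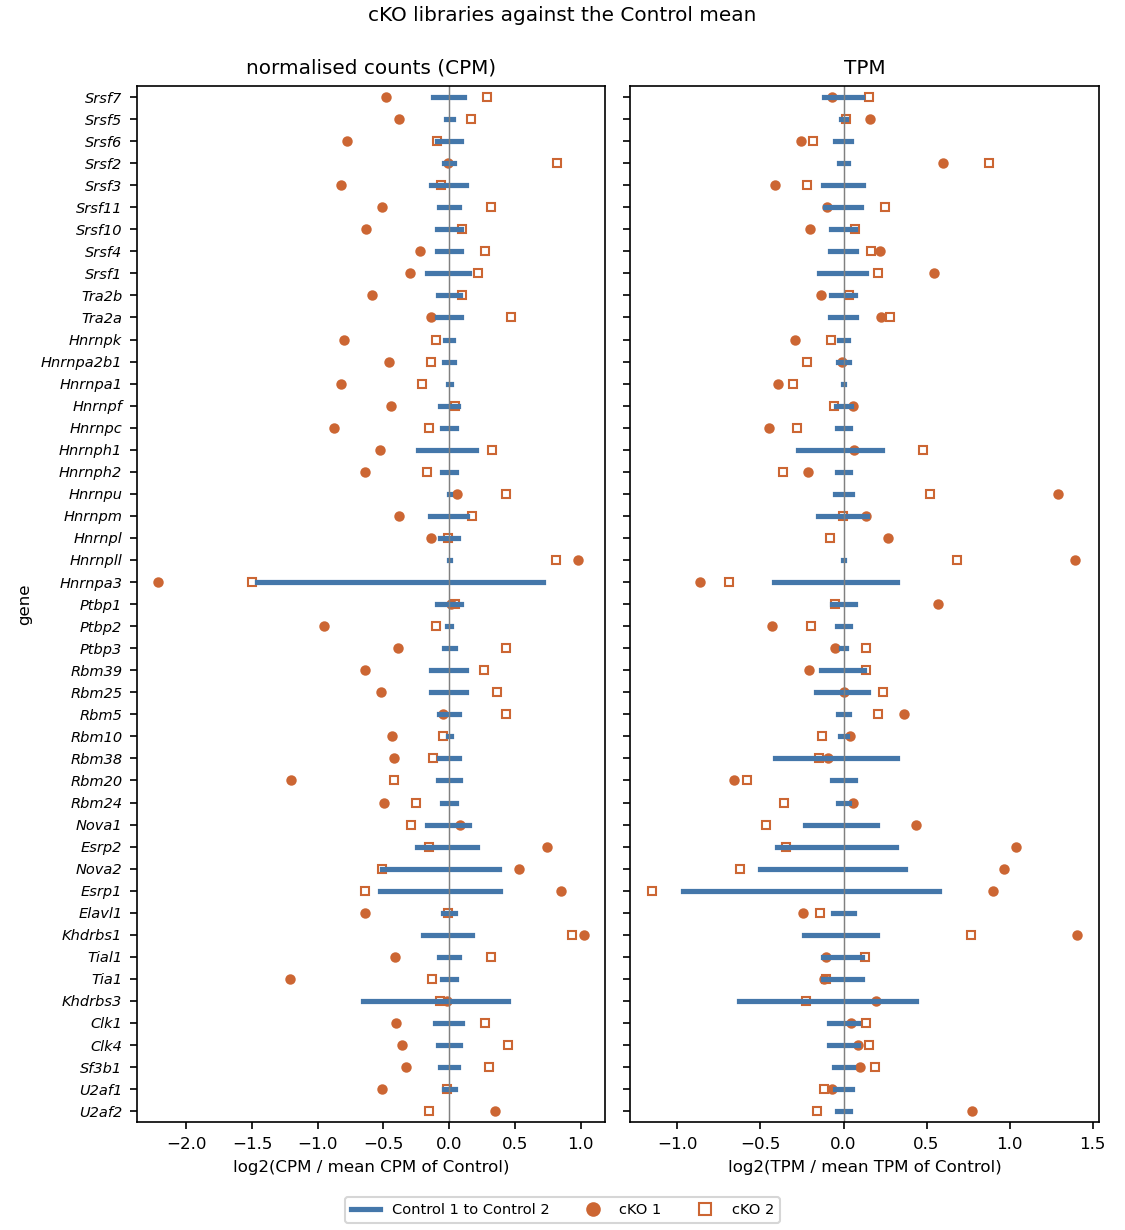
Log2 level of each regulator in cKO 1 (filled circles) and cKO 2 (open squares) relative to the Control mean, in CPM on the left and TPM on the right, with a blue line from Control 1 to Control 2. In CPM most cKO 1 points lie left of 0, with a median of -0.41, while in TPM their median is 0.04 (0.13 for genes with a mean of at least 4 CPM), and Hnrnpll and Khdrbs1 lie right of 0 in both cKO libraries on both scales.

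Among the 9 SR proteins no gene total was called, and in CPM all 9 had overlapping groups, with log2 fold changes from -0.39 to 0.47 and a median of -0.05, which turned to 0.06 with library totals and 0.03 with a filter at 5 CPM. In TPM both cKO values were above Control for Srsf1, Srsf2, Srsf4 and Srsf5 and below for Srsf3 and Srsf6, none of them called. Among genes with a mean of at least 4 CPM, 33.0% lay above and 21.4% below on that scale. No SR protein had an unadjusted p under 0.05 in edgeR. Srsf6 stood at 964 and 848 CPM in Control versus 529 and 850.4 CPM in cKO. The cKO 1 value was the low one, cKO 2 lay just inside the Control range, and the log2 fold change was -0.39 (SE 0.38). Srsf5 stood at 865 and 833 CPM in Control versus 652 and 955 CPM in cKO, with the cKO values on either side of Control. Its log2 fold change was -0.08 (SE 0.38). Srsf1, which promotes exons and also acts in mRNA export and translation, stood at 58.8 and 47.1 CPM in Control versus 43.1 and 61.6 CPM in cKO, which again surround Control.

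Srsf2, which promotes exons with C- or G-rich enhancers, was the nearest of the 47 to a call in TPM and is described for that value, which was seen first. It stood at 315 and 304 TPM in Control versus 469 and 568 TPM in cKO. Both cKO values were above both Control values, with a log2 difference of 0.73 (SE 0.12, adjusted p = 0.0627 in limma). In CPM it stood at 343 and 324 in Control and at 332 and 588 in cKO, so that only cKO 2 was high. The transcripts of Srsf2 share 20.7% of their 50-base words with other genes, and the sum with its overlapping neighbour Mettl23 gave a log2 ratio of 0.43.

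Some of the SR genes, and Tra2a and Tra2b, hold poison exons that can be read from the annotation. In the GENCODE M21 annotation (GRCm38), 26 cassette exons of nonsense-mediated decay transcripts in 15 of the 47 genes held the stop codon and overlapped no coding exon of a protein-coding transcript. The 4 below belong to Srsf3, Srsf7, Tra2a and Tra2b, the SR and Tra2 genes with such an exon whose mean transcript length is described below. Srsf1 and Srsf2, whose lengths are also described, have none among the 26. The exons of Srsf4 and Srsf11 are not shown. Each is printed 5′ to 3′ from the first base of the exon to its stop codon, which is in capitals. The Srsf3 exon is chr17:29039454-29039909 on the plus strand, and the others are on the minus strand at chr17:80204622-80205081 (Srsf7), chr6:49252803-49253108 (Tra2a) and chr16:22258986-22259261 (Tra2b).
Srsf3: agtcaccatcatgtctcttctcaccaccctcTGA
Srsf7: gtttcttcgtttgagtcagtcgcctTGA
Tra2a: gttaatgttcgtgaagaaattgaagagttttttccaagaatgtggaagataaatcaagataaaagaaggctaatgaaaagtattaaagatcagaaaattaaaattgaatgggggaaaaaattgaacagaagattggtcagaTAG
Tra2b: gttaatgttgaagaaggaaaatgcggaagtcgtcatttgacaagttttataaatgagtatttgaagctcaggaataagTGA
The stop codon ended 34 bases into the 456-base exon of Srsf3 and 28 bases into the 460-base exon of Srsf7. It ended 144 bases into the 306-base exon of Tra2a and 81 bases into the 276-base exon of Tra2b. The Tra2a and Tra2b exons open with the same 9 bases, gttaatgtt.

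The Rbfox motif was searched in these exons as GCATG on the transcript strand, which is the strand the protein reads. The flanking introns were not searched. Of the 26 exons, 4 held it (15.4%), and 2 of the 4 were overlapping forms of the Tra2b exon, which is also annotated with a longer end. The 26 also include Tial1 exons that overlap each other. Of the 1254 exons found by the same rule in 1115 genes, 13.8% held it. The exons of the 47 genes had a median length of 94 bases and those of all genes 118.5, so the shares are of exons of unequal length. The 4 distinct sites are shown with 12 bases on either side and the motif in capitals, at chr17:29039605-29039633 (Srsf3), chr16:22259133-22259161 (Tra2b, both forms), chr16:22258923-22258951 (Tra2b, longer form) and chr2:156177773-156177801 (Rbm39, minus strand).
Srsf3: tttggttcccgaGCATGctgttttctctc
Tra2b, both forms: aaaagaaagaatGCATGctaattatcaga
Tra2b, longer form: tttgctaaacatGCATGcattatttgttt
Rbm39: ggctggctgctaGCATGgccacttggggc
A match describes these letters only, and binding of Rbfox2 was not measured here.

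The deposited tables are per gene, so exon inclusion cannot be read from them, but the ratio of a gene's count to its TPM gives the mean length of its transcripts, weighted by abundance. In each library, every gene with 1 annotated transcript and a count over 200 gave its annotated length to within 1%. This check covers only genes with 1 transcript, so it does not test how the transcripts of other genes were weighted. A longer or shorter mean length in cKO measures a shift among annotated transcripts as the authors' quantification weighted them, without naming which. None of the 45 regulators tested for this ratio was called by limma, where 0.0129% of 15537 genes were. The fitted value is a log2 ratio centred in each library on its median over genes, and on that scale the 3242 tested genes with 1 annotated transcript, whose length cannot change, had a median of 0.02 and not 0. Relative to this centring, 5 regulators had an unadjusted p under 0.05, with 4 positive values (Srsf3, Srsf7, Tra2a and Ptbp3) and 1 negative (Srsf2), against 6.96% of all genes tested (3.53% positive and 3.43% negative). Centred instead on genes with 1 transcript, there were again 5, of which 1 was positive (Tra2a) and 4 negative (Srsf2, Hnrnph1, Hnrnpk and U2af1), against 7.82% of all genes (2.17% positive and 5.65% negative), and none was called. The unadjusted p under 0.05 of Srsf3, Srsf7 and Ptbp3 thus rests on the centring. The cKO lengths lay above both Control lengths for 7 of the 45 and below for 12, where 36.9% of all genes had groups apart, 12.8% above and 24.1% below. The longest library exceeded the shortest by a median of 9.68%, and by less than 10% in 25 of the 45 genes.

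In Srsf3 the mean length was 2642 and 2644 bases in Control and 2678 and 2730 bases in cKO. Both cKO lengths were above both Control lengths, by 0.03 as the log2 of the mean lengths. The centred log2 ratio was 0.05 (SE 0.01, adjusted p = 0.427 in limma). The annotated decay transcript with the poison exon, Srsf3-201, has 2594 bases and the protein-coding one 2618, so this measure does not separate them, and 2 retained-intron forms of 2836 and 4010 bases are longer. In Srsf7 the mean length was 1299 and 1308 bases in Control and 1321 and 1318 bases in cKO. The cKO lengths were again the longer ones, by 0.02 as the log2 of the mean lengths, with a centred log2 ratio of 0.04 (SE 0.01, adjusted p = 0.608 in limma). The decay transcript of Srsf7 with the poison exon has 1991 bases, and its protein-coding transcripts have 987 to 2403.

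The Tra2 proteins bind GAA-rich exonic enhancers, and Tra2b is known to promote inclusion of a poison exon in its own transcript. Tra2a had a mean length of 2333 and 2325 bases in Control and 2432 and 2456 bases in cKO. Both cKO lengths were the longer, by 0.07 as the log2 of the mean lengths, with a centred log2 ratio of 0.09 (SE 0.01, adjusted p = 0.312 in limma). Its protein-coding transcripts have 1777 and 1799 bases, the decay transcript with the exon printed above 2090, and retained-intron forms 3040 and 3788. Tra2b differed the other way in length, with 2503 and 2491 bases in Control and 2461 and 2405 bases in cKO. The log2 of the mean lengths was -0.04 and the centred log2 ratio -0.02 (SE 0.02). The Tra2b decay transcript with the shorter form of the exon has 1687 bases, and the protein-coding ones have 1369 and 3403. In totals Tra2b stood at 642 and 570.3 CPM in Control versus 404 and 647 CPM in cKO, and Tra2a at 183 and 161 CPM in Control versus 157 and 239 CPM in cKO. In both genes the cKO totals surround Control, with log2 fold changes of -0.21 (SE 0.37) and 0.20 (SE 0.35).

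Srsf2 and Srsf1 were shorter in both cKO libraries without passing the test. Srsf2 had a mean length of 1822 and 1810 bases in Control and 1607 and 1615 bases in cKO, with both cKO lengths below Control. The log2 of the mean lengths was -0.17 and the centred log2 ratio -0.15 (SE 0.01, adjusted p = 0.274 in limma), the smallest adjusted p of the 45. The gene has protein-coding transcripts of 1899 and 1326 bases and decay transcripts of 1336 and 620 bases. Srsf1 had 4621 and 4555 bases in Control and 3435 and 4278 bases in cKO, and most of its centred log2 ratio of -0.24 (SE 0.13, adjusted p = 0.608 in limma) came from cKO 1.

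**Figure D3:**
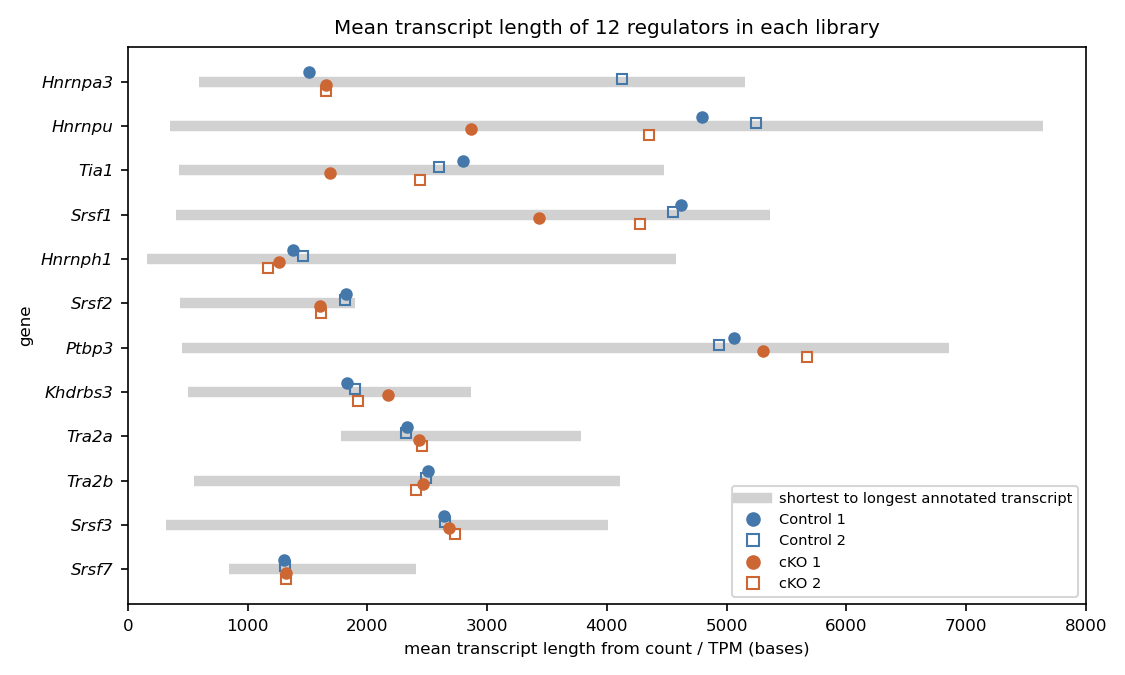
Mean transcript length, in bases, of 12 regulators in each library, with 1 point per library and a grey bar from the shortest to the longest annotated transcript of the gene. Hnrnpa3 spreads within Control (1511 and 4129.6 bases), Hnrnpu and Tia1 are shortest in cKO 1, and Srsf2 is shorter in both cKO libraries.

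The 12 hnRNPs had a median log2 fold change of -0.24 in gene totals. 1 of them fell, none rose, and 10 of the 12 had a negative fold change, as had 57.2% of genes with a mean of at least 4 CPM. Both cKO libraries lay below Control in CPM for 6 of them (Hnrnpa1, Hnrnpa2b1, Hnrnpa3, Hnrnpc, Hnrnph2 and Hnrnpk) and above for 2 (Hnrnpll and Hnrnpu), where 22.6% and 16.7% of genes with a mean of at least 4 CPM did. The median stayed negative under the 11 alternatives, from -0.56 without cKO 2 to -0.04 without cKO 1. In TPM it was -0.06, with 5 of 12 below Control and 2 above. Of the genes with a mean of at least 4 CPM, 21.4% lay below and 33.0% above in TPM. Hnrnpk, the most abundant, stood at 1236 and 1184 CPM in Control versus 695 and 1126 CPM in cKO, both below Control, with a log2 fold change of -0.41 (SE 0.39). Hnrnpa1, which blocks exons by binding silencers and competes with SR proteins, stood at 689 and 678 CPM in Control versus 386 and 593 CPM in cKO (log2 fold change -0.48, SE 0.38). It was also lower in TPM, at 683 and 679 in Control and 517 and 551 in cKO, with a log2 difference of -0.35 (SE 0.10, adjusted p = 0.199 in limma). Hnrnpc, which binds U tracts, was lower as well, at 620.1 and 589 TPM in Control versus 444 and 498 TPM in cKO, with a log2 difference of -0.36 (SE 0.11, adjusted p = 0.211 in limma). Hnrnpf, which binds G runs, stood at 804 and 729 CPM in Control versus 563 and 790.0 CPM in cKO, which overlap.

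Hnrnpa3 was the gene that fell. This close relative of Hnrnpa1 binds mRNA in the nucleus and takes part in mRNA transport, and it lies at chr2:75659261-75669407 on the plus strand. Its level was 16.5 CPM in Control 1, 74.1 in Control 2, 9.76 in cKO 1 and 16.0 in cKO 2. Control 2 was high, and Control 1 lay within 1 CPM of cKO 2. The fall was a log2 fold change of -1.81 (SE 0.35; edgeR's quasi-likelihood test, adjusted p = 0.000308), from 45.3 ± 40.8 to 12.9 ± 4.44 CPM (SD, n = 2 each). Without Control 2 the log2 fold change was -0.36 with an adjusted p = 1.00 in edgeR, and without Control 1 it was -2.53 with an adjusted p = 0.0426. Leaving out cKO 1 or cKO 2 also ended the call, at -1.49 and -2.29, as did DESeq2 (-1.85), library totals in place of TMM (-1.72), no filter on low counts (-1.83), a filter at 5 CPM (-1.75) and the replicate block (-1.48).

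The transcript length of Hnrnpa3 set the same library apart. The mean length was 1511 bases in Control 1, 4129.6 in Control 2 and 1654 in both cKO libraries. The annotation gives protein-coding transcripts of 1654 and 5150 bases among others of 596 bases or more, so both cKO libraries stood at the length of the shorter of these 2 and Control 2 far above it. Per length the gap was smaller, at 18.3 and 30.5 TPM in Control versus 13.4 and 15.1 TPM in cKO. The log2 difference in TPM was -0.69 (SE 0.24, adjusted p = 0.253 in limma).

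Hnrnpa3 has many copies in the genome, and 27.1% of its 50-base words occur in other annotated genes. The 13 genes that each hold at least 10% of its words are 12 pseudogenes and Gm6793, annotated as protein coding. These 13 summed to 124 and 118 CPM in Control versus 114 and 111 CPM in cKO, several times the level of Hnrnpa3 itself in 3 of the 4 libraries. Hnrnpa3 and the 13 copies together stood at 141 and 192 CPM in Control versus 124 and 127 CPM in cKO, a log2 ratio of -0.41. The sources used here do not say how the authors assigned reads that fit several copies, so the level of Hnrnpa3 alone is uncertain.

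**Figure D4:**
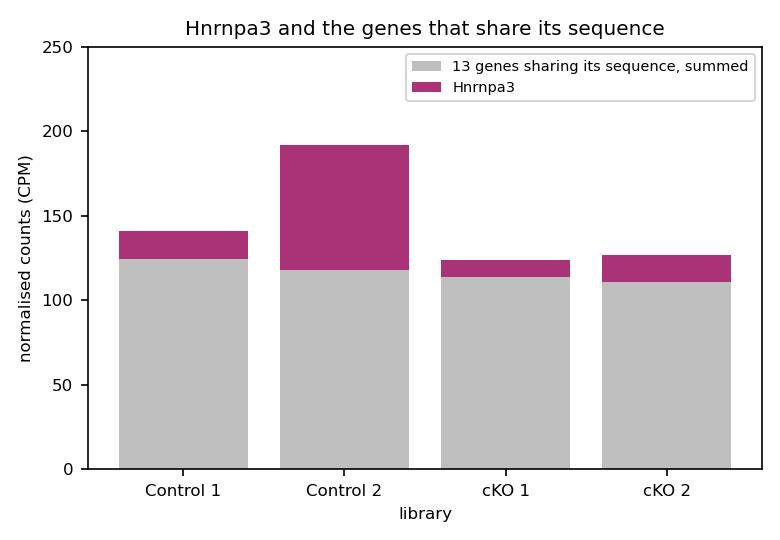
CPM of Hnrnpa3 (upper part of each bar) stacked on the summed CPM of the 13 genes that share its sequence (lower part), with 1 bar per library. The copies stay between 111 and 124 CPM, and Hnrnpa3 reaches 74.1 CPM in Control 2 and at most 16.5 CPM in the other 3 libraries.

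Shared sequence also touches other regulators. For 12 of the 47 genes at least 1 other gene holds 10% or more of their 50-base words, among them Hnrnpf (61.9% shared with any gene), Rbm10 (42.8%), Srsf4 (39.5%), Nova2 (30.8%) and Hnrnpa1 (28.2%). The partners are pseudogenes for many of them, but that of Srsf4 (Gm12992) is a processed transcript, that of Nova2 (Gm26821) a lincRNA and that of Hnrnpm (March2) protein coding. Adding the genes that share sequence gave log2 ratios of -0.17 for Hnrnpf, -0.21 for Rbm10, 0.07 for Srsf4 and -0.47 for Hnrnpa1, where the genes alone had fold changes of -0.18, -0.23, 0.05 and -0.48. The gap between gene and sum was largest for Hnrnpa3 among the 12.

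Hnrnpll was higher in both cKO libraries on both scales without passing the test. Known for repressing variable exons of Cd45 in lymphocytes, it lies at chr17:80029487-80062334 on the minus strand. It stood at 32.2 and 32.1 CPM in Control versus 63.4 and 56.3 CPM in cKO, with both groups tight and well apart. The log2 fold change was 0.90 (SE 0.33; edgeR's quasi-likelihood test, adjusted p = 0.454), and it was between 0.82 and 1.08 in the 11 alternatives, 3 of which called it. In TPM it stood at 17.4 and 17.3 in Control and 45.6 and 27.8 in cKO, a log2 difference of 1.00 (SE 0.23, adjusted p = 0.130 in limma). The mean length stayed between 3106 and 3158 bases. Hnrnpll shares 0.212% of its words with other genes.

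Hnrnpu and Hnrnph1 differed more in length than in total. Hnrnpu, a scaffold protein of nuclear RNA and chromatin, stood at 298 and 299 CPM in Control versus 312 and 403 CPM in cKO (log2 fold change 0.26, SE 0.36). Its mean length was 4792 and 5249 bases in Control and 2868 and 4354 bases in cKO, with cKO 1 far below the rest (centred log2 ratio -0.48, SE 0.25, adjusted p = 0.608 in limma). The protein-coding transcript has 7640 bases and a decay transcript 2844. In TPM, which the shorter length raises, Hnrnpu stood at 104 and 97.0 in Control and 247 and 144 in cKO, a log2 difference of 0.90 (SE 0.25, adjusted p = 0.199 in limma). Hnrnph1, a G-run binder like Hnrnpf, had 1379 and 1458 bases in Control and 1262 and 1171 bases in cKO (centred log2 ratio -0.20, SE 0.06, adjusted p = 0.608 in limma). Its totals were 324 and 238 CPM in Control versus 195 and 351 CPM in cKO, which overlap.

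None of the 3 PTB proteins, repressors that bind pyrimidine tracts, was called. Ptbp1, the form found in most tissues, stood at 374 and 331 CPM in Control versus 356 and 363 CPM in cKO, inside the Control range. Ptbp2, the neuronal form, was at 65.4 and 66.9 CPM in Control versus 34.1 and 61.8 CPM in cKO, both below, with a log2 fold change of -0.46 (SE 0.34). Ptbp3 stood at 116 and 109 CPM in Control versus 85.8 and 152 CPM in cKO, and its mean length was 5061 and 4937 bases in Control and 5302 and 5673 bases in cKO. The Ptbp3 lengths did not overlap (centred log2 ratio 0.15, SE 0.04, adjusted p = 0.608 in limma).

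Of the 7 RBM proteins none was called, 6 had a negative log2 fold change in totals (57.2% of genes with a mean of at least 4 CPM) and the median was -0.23, from -0.57 without cKO 2 to -0.04 without cKO 1 over the alternatives. Both cKO libraries lay below Control for 4 of them (Rbm10, Rbm20, Rbm24 and Rbm38), as for 22.6% of genes with a mean of at least 4 CPM. Rbm20, which sets the splicing of titin in striated muscle, had the most negative log2 fold change of the 7, at 60.2 and 53.7 CPM in Control versus 24.7 and 42.6 CPM in cKO. Both cKO values lay below Control, with a log2 fold change of -0.76 (SE 0.33; edgeR's quasi-likelihood test, adjusted p = 0.786) and -1.27 without cKO 2. Per length Rbm20 stood at 24.0 and 21.8 TPM in Control versus 14.5 and 15.3 TPM in cKO, a log2 difference of -0.59 (SE 0.16, adjusted p = 0.166 in limma), so the cKO libraries were close to each other on that scale. Rbm39, which works with U2AF in 3′ splice site choice, stood at 718 and 596 CPM in Control versus 421 and 789 CPM in cKO. Rbm25 stood at 288 and 239.9 CPM in Control versus 184 and 339.8 CPM in cKO. For Rbm39 and Rbm25 the cKO values surround Control, with log2 fold changes of -0.12 and -0.01 (SE 0.38 and 0.36).

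The neuronal Nova and epithelial Esrp genes were the 4 lowest of the 47 by mean TPM. Nova1 stood at 1.64 and 2.04 CPM in Control versus 1.94 and 1.50 CPM in cKO, and Nova2 at 1.61 and 0.873 CPM in Control versus 1.79 and 0.874 CPM in cKO. Esrp1 and Esrp2 stood between 0.179 and 0.999 CPM, each highest in cKO 1, the library with the highest median TPM over all genes. All 4 genes had overlapping groups.

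Among the STAR and U-rich binders Khdrbs1 stood apart. It encodes Sam68, a STAR protein that links signalling to splicing, and lies at chr4:129703164-129742303 on the minus strand. Khdrbs1 stood at 50.6 and 65.7 CPM in Control versus 118 and 111 CPM in cKO, with both cKO values well above Control. The log2 fold change was 0.98 (SE 0.35; edgeR's quasi-likelihood test, adjusted p = 0.347), and it was between 0.79 and 1.16 in the 11 alternatives, 2 of which called it. In TPM it stood at 23.5 and 31.9 in Control and 73.4 and 47.1 in cKO, a log2 difference of 1.08 (SE 0.24, adjusted p = 0.134 in limma). Its mean length differed little, from 3500 to 3672 bases.

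The other members of that class were not called. Elavl1 (HuR), a stabiliser of AU-rich mRNA, stood at 375 and 352 CPM in Control versus 232 and 361 CPM in cKO, which overlap. Tia1, which helps U1 at weak 5′ splice sites, stood at 23.9 and 25.7 CPM in Control versus 10.7 and 22.7 CPM in cKO (log2 fold change -0.57, SE 0.32), and at 14.3 and 16.8 TPM in Control versus 14.4 and 14.5 TPM in cKO. The groups overlap in TPM, and the mean length was 2799 and 2594 bases in Control and 1690.0 and 2439 bases in cKO. Khdrbs3 stood at 1.51 and 3.25 CPM in Control versus 2.35 and 2.26 CPM in cKO, and its mean length was 1829 and 1898 bases in Control and 2172 and 1920.2 bases in cKO.

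The kinases of SR proteins and the factors of 3′ splice site recognition had overlapping totals throughout. Clk1 stood at 339.6 and 295 CPM in Control versus 239 and 382 CPM in cKO, and Clk4 at 119 and 106 CPM in Control versus 87.6 and 154 CPM in cKO. U2af1, which reads the AG of the 3′ splice site, stood at 225 and 238 CPM in Control versus 162 and 228 CPM in cKO. Sf3b1, the U2 snRNP protein at the branch point, stood at 1118 and 1019.8 CPM in Control versus 851 and 1317 CPM in cKO. U2af2, which binds the polypyrimidine tract, was at 83.3 and 88.2 TPM in Control versus 147 and 76.8 TPM in cKO, with cKO 1 the high one. The log2 fold changes in totals of Clk1, Clk4, U2af1 and Sf3b1 lay between -0.25 and 0.10, with SE of 0.35 to 0.39.

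A wider list of 109 genes for SR-related proteins, kinases, other hnRNPs and RBM proteins, core spliceosome and decay factors was read in the same way. In edgeR none was called, nor in DESeq2. In edgeR 7 had an unadjusted p under 0.05, 5 higher and 2 lower. That compares with 4.83% of all genes and 8.64% of those with a mean of at least 4 CPM. Both cKO libraries lay above Control for 10 and below for 30, where 16.7% and 22.6% of genes with a mean of at least 4 CPM did. The median log2 fold change was -0.14, against -0.06 over those genes. The highest mean CPM, a scale not corrected for length, was that of the helicase Ddx5 (5233 and 4569 CPM in Control, 3317 and 5653 CPM in cKO), followed by the STAR protein gene Qk (604 and 526 CPM in Control, 302 and 583 CPM in cKO) and Sf3b3 (531 and 463 CPM in Control, 331 and 505 CPM in cKO). In all 3 genes cKO 1 was the lowest library. In limma on TPM 1 of 105 genes rose, and none fell, where 0.308% of all genes were called. It was Srrm2, a large SR-related protein of nuclear speckles, at 25.9 and 26.6 TPM in Control versus 52.8 and 53.6 TPM in cKO, a log2 difference of 0.99 (SE 0.13, adjusted p = 0.0393 in limma). Its log2 fold change in totals was 0.92 (SE 0.35, 0.488 as adjusted p from edgeR's quasi-likelihood test).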

How the data were processed

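The authors deposited a table of estimated counts per gene and a table of TPM per gene, made with StringTie 1.3.6 and HISAT2 2.1.0 among the tools and with GRCm38, per the submitters' processing notes. Strand setting and annotation release: not given in the sources used here. The deposited counts are whole numbers and were used as they stand. Of 55487 identifiers, 55394 matched GENCODE M21. Counts were tested with edgeR 4.0.16 (R 4.3.3; TMM, filterByExpr, robust quasi-likelihood), and log2(TPM + 1) and the centred log2 ratio of count to TPM (mean count at least 100) with limma 3.58.1, each with Benjamini-Hochberg adjustment over all genes tested and a threshold of 0.05. SE of an edgeR fold change is its size over the square root of F. DESeq2 1.42.0 was an alternative. Scripts were tested on simulated data.

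The members, roles and lists were chosen with earlier results of these data known. Values in each library are given for genes called, for the 2 members of each role with the highest mean CPM, and for the 6 non-overlapping members with the largest change in total (mean CPM at least 4) or in ratio. Srsf2, Srsf3, Srsf7, Hnrnpc, Ptbp2, U2af2 and Srrm2 were added after their values were seen. The alternatives with at least 2 transcripts per gene and with crossed pairing were added after seeing the data.

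Libraries of a group differed beyond counting noise (chi-square over degrees of freedom 49.6 for Control and 83.5 for cKO), so neither pair is a repeat deposit of 1 library, and they were counted as separate libraries. This does not show separate animals. The common biological coefficient of variation was 0.373, so the spread between libraries, not depth, limits most comparisons. The library codes hold a part that is the same within a group and differs between groups. What it marks cannot be told apart from genotype. Another part is shared by the libraries with the same replicate number in both groups, and the labels do not say what it marks, so the fit with the replicate number as a block is also a fit with that part as a block.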

Additional observations from a re-analysis of the deposited data

How the results depend on the processing

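Of the regulators, 1 was called in gene totals. The count was 0 under a filter at 5 CPM in 2 libraries, DESeq2, no filter on low counts or the replicate block, and 0 to 19 with 1 library left out (3 without cKO 1, 19 without cKO 2). Over all genes the 210 calls became 14 with that CPM filter, 98 with DESeq2, 119 with its size factors in edgeR, 28 with no filter, 96 with the replicate block and 51 to 2267 with 1 library left out. The share of calls that were higher was 66.2% with TMM and 55.5% with DESeq2's size factors. Library totals in place of TMM moved the median of all genes to 0.25 and that of the regulators to 0.06, and the signs of the medians of SR, Tra2, PTB, Clk, 3′ splice site and STAR genes depended on the scaling or filter. The wider list had 3 calls with library totals and 0 to 34 with 1 library left out. With library totals 0.270% of all genes were called lower and 0.469% higher. The largest number for the wider list, like the 2267 over all genes, came without cKO 2, a fit that leaves 1 cKO library. The directions of the wider list's calls are not given here, and the numbers were not compared with genes of like level. The regulators' median log2 fold change ranged from -0.49 to 0.054 with 1 library left out.

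In TPM the regulators had 3 calls with no filter, all higher (Hnrnpll, Khdrbs1 and Srsf2), where 0.742% of all 54470 genes were called. Their number of calls also moved with 1 library left out, in fits that leave 1 library in a group. All genes had 404 with no filter, 102 with a pseudocount of 0.1 and 18 to 608 with 1 library left out, from 53. The ratio gave 2 calls over all genes, 19 at a mean count of at least 20, and 0 at 500, with genes of at least 2 transcripts, with the replicate block and with any 1 library left out (0 to 0). No regulator was called in any of them.

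Named genes near 0 changed sign in totals. These were Srsf1 (0.077), Srsf5 (0.0097), Hnrnph1 (0.029), Rbm25 (0.056) and Clk1 (0.052) with the CPM filter. With library totals they were Srsf1 (0.11), Srsf5 (0.042), Hnrnph1 (0.059), Rbm25 (0.085), Nova1 (0.10), Khdrbs3 (0.12) and Clk1 (0.083). With DESeq2 and with its size factors they were Ptbp1 (-0.041), Nova2 (-0.0047 and -0.0045) and Sf3b1 (-0.030). With the replicate block and the crossed pairing they were Khdrbs3 (0.052 and 0.051) and Sf3b1 (-0.013). The ratio changed sign when centred on genes with 1 transcript for Hnrnpa1 (-0.011), Rbm39 (-0.0012), Nova2 (-0.0090), Clk1 (-0.0044), U2af1 (-0.022) and Sf3b1 (-0.0051), and at a mean count of 20 for U2af1 (-0.0096).

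With 1 library left out the log2 fold change in totals ranged from -0.37 to 0.23 for Srsf1, -0.45 to 0.18 for Srsf5, -0.21 to 0.48 for Tra2a, -0.65 to 0.11 for Tra2b, -0.51 to 0.056 for Hnrnpf, -0.59 to 0.33 for Hnrnph1, -0.0080 to 0.44 for Hnrnpu, -0.078 to 0.11 for Ptbp1 and -0.46 to 0.44 for Ptbp3. It ranged from -0.59 to 0.38 for Rbm25, -0.71 to 0.28 for Rbm39, -0.28 to 0.047 for Nova1, -0.49 to 0.59 for Nova2, -0.51 to 0.59 for Khdrbs3, -0.71 to 0.0019 for Elavl1, -0.48 to 0.28 for Clk1, -0.43 to 0.46 for Clk4 and -0.40 to 0.31 for Sf3b1. The log2 ratio ranged from -0.085 to 0.050 for Srsf5, -0.042 to 0.0075 for Tra2b, -0.0044 to 0.027 for Hnrnpa1, -1.30 to 0.15 for Hnrnpa3, -0.087 to 0.057 for Rbm20, -0.072 to 0.022 for Rbm25, -0.31 to 0.46 for Nova1 and -0.0098 to 0.011 for U2af1. The causes were not tested.

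Deviations of same-numbered libraries correlated at -0.16 over 16559 genes, and the labels do not say what a number marks, so the numbers were not taken to pair the samples. The crossed pairing gave 243 calls over all genes, with 1 regulator.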
